A study of Mus musculus with 12 samples.

Results

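Retinoic acid, a derivative of vitamin A, is a small lipid that diffuses between cells and switches genes on by binding nuclear receptors. Retinol travels in the blood on the carrier Rbp4, is oxidised to retinal by enzymes such as Rdh10, and is then oxidised to retinoic acid by the retinaldehyde dehydrogenases Aldh1a1, Aldh1a2 and Aldh1a3. Inside the cell retinoic acid is bound by Crabp1 and Crabp2, and it acts through receptors that include Rara and Rarb. In the developing kidney retinoic acid made in the stroma is known for keeping the receptor tyrosine kinase Ret expressed in the tips of the branching ureteric bud.

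The 9 genes named above were followed across the kidneys of 2 mouse models and their littermates. They were selected by name, as rows of the 24062 gene symbols counted in every kidney, and all 9 passed the filter on low counts in both models. Crabp1 was chosen by its higher level in both models, so its values in those comparisons are given as a description with no test. The other 8 were chosen for their part in the same pathway.

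Whole kidneys were taken at postnatal day 3, with 3 kidneys from 2 litters in each of 4 groups, 12 in all. In LIN28B Wt1 mice (C57BL/6), a human LIN28B transgene, encoding an RNA-binding protein that blocks maturation of let-7 microRNAs, was switched on by doxycycline in cells with a history of Wt1-Cre, which is active in the nephron-forming mesenchyme, parts of the stroma and podocytes. The study describes a doxycycline pulse late in gestation for these mice, without naming the time separately for the sequenced kidneys, and their controls were labelled wild type littermates of the same strain with no further alleles stated. let-7 KO mice (mixed CD1 and C57BL/6) lacked a cluster of let-7a, let-7d and let-7f genes in every cell and were compared with wild type littermates of that mixed strain. Both control groups were used, because the models differed in strain, litters and experiment. The labels do not say whether kidneys of a litter came from separate animals, so p-values measure the spread between these kidneys.

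Counts per kidney summed to between 39926235 and 61872736. Over the deleted microRNA genes, the row for Mirlet7d held 0 counts in all 3 let-7 KO kidneys and 0, 19 and 35 in their littermates, so the zero in 1 littermate leaves it a weak check. The mouse Lin28b row held 232, 224 and 71 counts in LIN28B Wt1 kidneys and 0, 18 and 33 in their controls. Reads of the human transgene and of the mouse gene cannot be told apart in that row. A list of fat and muscle genes summed to 47.6 and 53.7 CPM (library-scaled counts, after TMM) in control kidneys 1 and 2 of the LIN28B experiment and to at most 7.98 in the other 10 kidneys. Its part in the results was not tested, and values without each of those kidneys are given where they matter.

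The let-7 microRNAs removed in the knockout share a seed, the part of a microRNA that pairs with its targets. Their mature sequences in RefSeq (GRCm38.p6) are shown because the seed defines the sites looked for in the 9 genes; capitals mark bases 2 to 8, and all 3 precursors lie on the minus strand of chromosome 13.
let-7a-5p: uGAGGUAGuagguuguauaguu
let-7d-5p: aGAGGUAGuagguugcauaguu
let-7f-5p: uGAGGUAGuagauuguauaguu

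Sites of 7 bases that pair with this seed were searched on the sense strand of 3′UTRs (GENCODE M21, build GRCm38, the coding transcript with the longest 3′UTR of each gene). The letters CTACCTC pair with bases 2 to 8, and the letters TACCTCA pair with bases 2 to 7 followed by an A; the 2 overlap where both are present. A match to either was found in 2 of the 9 genes, beside 16.7% of 13744 tested genes with a 3′UTR. Rdh10 held 1 CTACCTC at chr1:16132366-16132372 on the plus strand, position 949 of a 3′UTR of 2317 bases, and 10.6% of all genes held such a site. Aldh1a3 held 1 TACCTCA at chr7:66391621-66391627 on the minus strand, position 1062 of a 3′UTR of 1799 bases, and 10.8% of all genes held one. The surrounding 30 bases are printed with the match in capitals.
Rdh10: aaagtgaatttCTACCTCtgtatctatgtg
Aldh1a3: agtgacctgggTACCTCAgtcatgttaaaa
No match was present in the annotated 3′UTRs of Crabp1 (234 bases), Crabp2 (339 bases) or the other 5 genes.

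Crabp1, which holds retinoic acid in the cytoplasm, is a short gene on chromosome 9 (chr9:54764748-54773110, plus strand, GRCm38). In LIN28B Wt1 kidneys its level was 30.2, 48.5 and 28.5 CPM. In their littermate controls it was 15.8, 8.05 and 18.1 CPM. Every LIN28B Wt1 kidney was therefore above every control, and the group means were 35.7 ± 11.1 and 14.0 ± 5.25 CPM (SD, n = 3 each). The log2 fold change was 1.36 (SE 0.33), or 2.56-fold, and no test is given because the gene was chosen by this difference. Without control kidney 1 the log2 fold change was 1.455, and without control kidney 2, the lowest control, it was 1.08. In whole kidneys, more cells of a type and more RNA per cell cannot be told apart, here or for any gene that follows.

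In let-7 KO kidneys Crabp1 stood at 13.2, 13.8 and 41.9 CPM, and in their wild type littermates at 4.87, 6.39 and 6.46 CPM. Again the groups did not overlap, but the third let-7 KO kidney, the only one of its group from litter 2 and the library with the lowest total count, stood far above the others of its group. The means were 23.0 ± 16.4 and 5.91 ± 0.90 CPM (SD, n = 3 each), a log2 fold change of 1.95 (SE 0.47), again with no test. Without that kidney the log2 fold change was 1.19. Within litters the log2 ratio of means was 1.73 and 0.66 in LIN28B Wt1 mice and 1.26 and 2.70 in let-7 KO mice, for litters 1 and 2 in turn. That the mutant kidneys were higher in each of the 4 litters follows from the groups not overlapping and is no separate support. The control groups themselves stood at different levels, as described further on. Subtracting the let-7 KO log2 fold change from that of LIN28B Wt1 gave −0.61 (SE 0.60), and it became 0.17 without the third let-7 KO kidney.

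Crabp2, on chromosome 3 (chr3:87948666-87953376, plus strand), carries retinoic acid into the nucleus and hands it to the receptors. It was at 28.4, 42.8 and 29.3 CPM in LIN28B Wt1 kidneys and at 6.45, 10.01 and 9.86 CPM in controls. All 3 mutant kidneys were above all 3 controls. The means were 33.5 ± 8.08 and 8.77 ± 2.01 CPM (SD, n = 3 each), and the log2 fold change of 1.94 (SE 0.27), or 3.83-fold, passed the test over all genes (edgeR quasi-likelihood test, Benjamini-Hochberg adjusted p = 0.0115). Crabp2 was the 1 gene called among the 8 members other than Crabp1, while 1.23% of all 15793 genes tested were called at an adjusted p below 0.05. The call rested on few kidneys: without control kidney 1 the log2 fold change was 1.76 (edgeR adjusted p = 0.0807) and without control kidney 2 it was 2.04 (adjusted p = 0.0822). Without those kidneys the number of all genes called fell too, from 194 to 27 and 21 in turn. Both are the controls with the higher sums of fat and muscle genes, whose part was not tested.

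In let-7 KO kidneys Crabp2 was at 14.2, 15.5 and 13.4 CPM, against 6.25, 12.1 and 4.30 CPM in wild type littermates. The let-7 KO kidneys were close to each other and all above the littermates. The means were 14.4 ± 1.03 and 7.55 ± 4.07 CPM (SD, n = 3 each), and the log2 fold change of 0.92 (SE 0.41) did not pass the test (edgeR adjusted p = 0.456). None of the 8 members was called in this model by edgeR, where 0.0194% of 15500 genes were, and DESeq2 called 0 of them, leaving Crabp2, Rbp4 and Aldh1a1 without an adjusted p. Crabp2 was the only one of the 8 with an unadjusted p below 0.05, which 10.8% of all genes reached. The log2 fold change in LIN28B Wt1 exceeded that in let-7 KO by 0.999 (SE 0.49), and this difference was not called either (edgeR interaction adjusted p = 0.811).

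**Figure D1:**
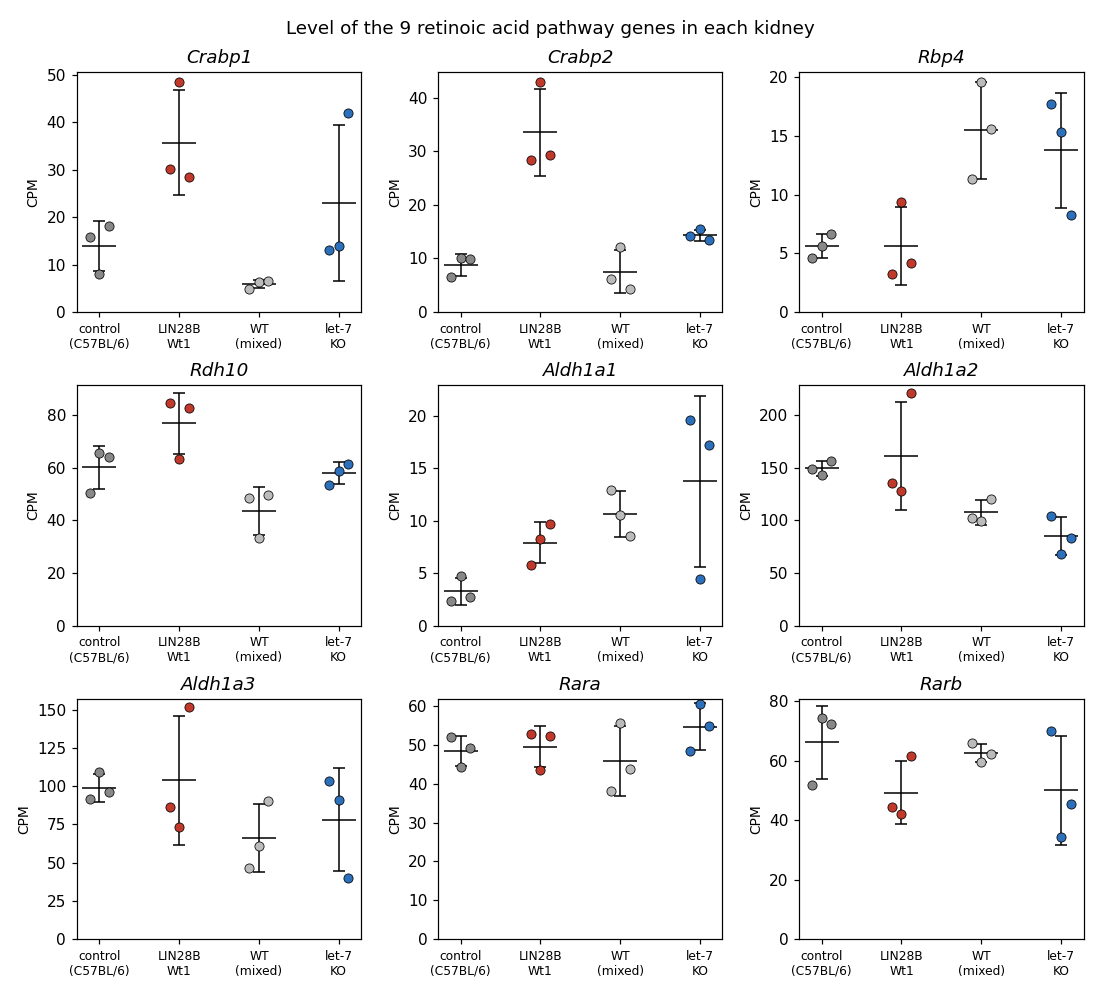
Level of each of the 9 genes in CPM (linear axes from 0) in the 3 kidneys of each of the 4 groups; points are kidneys, horizontal lines means and vertical bars SD. Crabp1 and Crabp2 are above every littermate control of the same experiment in both mutants, and the third let-7 KO kidney, at 41.9 CPM, stands apart for Crabp1 but not for Crabp2.

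Kidney-to-kidney variation of the 2 binding proteins is described from 3 kidneys a group, with no test. Over all 12 kidneys the log2 levels of Crabp1 and Crabp2 had a Pearson r of 0.76, whereas the deviations from the 4 group means had an r of −0.0019 when pooled over the groups, with the third let-7 KO kidney farthest from its group mean for Crabp1; both are descriptions over kidneys that share groups and litters. In LIN28B Wt1 mice the kidney with the most Crabp1 also had the most Crabp2. The ratio of Crabp1 to Crabp2 counts within a kidney, not scaled for exon lengths of 802 and 1322 bases, was 1.06, 1.13 and 0.97 there. It ranged from 0.80 to 2.44 in their controls, from 0.53 to 1.504 in wild type littermates of the let-7 KO, and from 0.90 to 3.12 in let-7 KO kidneys. The third let-7 KO kidney held the highest ratio of all 12.

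Rbp4, the serum carrier of retinol, lies on chromosome 19 (chr19:38116629-38125281, minus strand). It was at 3.22, 9.39 and 4.16 CPM in LIN28B Wt1 kidneys and 4.57, 5.66 and 6.66 CPM in controls, and at 17.7, 15.4 and 8.25 CPM in let-7 KO kidneys and 11.3, 19.5 and 15.5 CPM in their littermates. The groups overlapped in both models, and the log2 fold changes were −0.01 (SE 0.46; edgeR adjusted p = 0.996) and −0.17 (SE 0.36; adjusted p = 0.902). Between the experiments the levels were further apart, and 5 of the 6 mixed-strain kidneys lay above all 6 C57BL/6 kidneys.

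Rdh10, which carries out the rate-limiting step from retinol to retinal in the embryo (chr1:16105774-16133734, plus strand), had the higher mean in both mutants and did not pass the test. Its levels were 84.6, 63.4 and 82.5 CPM in LIN28B Wt1 kidneys and 50.5, 65.7 and 64.1 CPM in controls. They were 53.4, 58.8 and 61.4 CPM in let-7 KO kidneys, all above the 48.4, 33.2 and 49.4 CPM of the littermates. The log2 fold changes of 0.36 (SE 0.18; edgeR adjusted p = 0.33) and 0.40 (SE 0.22; adjusted p = 0.539) were near each other, differing by −0.06 (SE 0.27). Rdh10 is the gene with the CTACCTC match printed above.

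Among the retinaldehyde dehydrogenases only Aldh1a1 (chr19:20492715-20643465, plus strand) stood clear of its controls in one model. It was at 5.78, 8.27 and 9.65 CPM in LIN28B Wt1 kidneys and 2.38, 4.76 and 2.70 CPM in controls, with no overlap. The log2 fold change was 1.27 (SE 0.42), 2.42-fold, with an unadjusted p of 0.0132 and an adjusted p of 0.152 in edgeR. Without control kidney 1 the log2 fold change was 1.09, and without control kidney 2 it was 1.64. In let-7 KO kidneys the levels of 19.6, 4.42 and 17.2 CPM spread on both sides of the littermates' 12.9, 10.6 and 8.51 CPM. There the log2 fold change was 0.36 (SE 0.49; adjusted p = 0.832). Aldh1a1 has a close copy, Aldh1a7, and how reads shared between them were counted is not given in the sources used here, so its values are uncertain.

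Aldh1a2 (chr9:71215789-71296243, plus strand), the main retinoic acid-producing enzyme of the embryo, did not separate the mutants from their controls. It was at 136, 128 and 221 CPM in LIN28B Wt1 kidneys, around the tight 149, 143 and 156 CPM of the controls, and at 104, 68.3 and 83.7 CPM in let-7 KO kidneys beside 103, 99.5 and 121 CPM in littermates. The log2 fold changes were 0.12 (SE 0.21; edgeR adjusted p = 0.828) and −0.34 (SE 0.20; adjusted p = 0.574). Aldh1a3 (chr7:66390890-66427517, minus strand), which makes retinoic acid in the ureteric epithelium, ranged from 73.4 to 151 CPM in LIN28B Wt1 kidneys and from 91.6 to 109 CPM in controls, and from 39.6 to 103 CPM in let-7 KO kidneys and from 46.7 to 90.2 CPM in littermates. Its log2 fold changes were 0.07 (SE 0.25; adjusted p = 0.92) and 0.24 (SE 0.35; adjusted p = 0.847). For both enzymes the third LIN28B Wt1 kidney was the high one, and without it the log2 fold changes were −0.18 and −0.31.

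Neither receptor passed the adjusted threshold in either model. Rara (chr11:98927818-98974942, plus strand) was between 43.5 and 53.0 CPM in LIN28B Wt1 kidneys and between 44.3 and 52.0 CPM in controls, a log2 fold change of 0.04 (SE 0.16; edgeR adjusted p = 0.944). In let-7 KO kidneys it was between 48.5 and 60.7 CPM and in littermates between 38.2 and 55.8 CPM, a log2 fold change of 0.24 (SE 0.21; adjusted p = 0.719). Rarb (chr14:16430839-16819156, minus strand), a receptor gene that retinoic acid itself induces, had the lower mean in both mutants. It was at 44.4, 42.0 and 61.5 CPM in LIN28B Wt1 kidneys against 51.9, 74.2 and 72.2 CPM in controls, and at 70.1, 34.3 and 45.5 CPM in let-7 KO kidneys against 65.8, 59.6 and 62.4 CPM in littermates. The groups overlapped in each model, and neither the log2 fold change of −0.42 (SE 0.21; adjusted p = 0.333) nor that of −0.33 (SE 0.26; adjusted p = 0.68) passed the test.

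**Figure D2:**
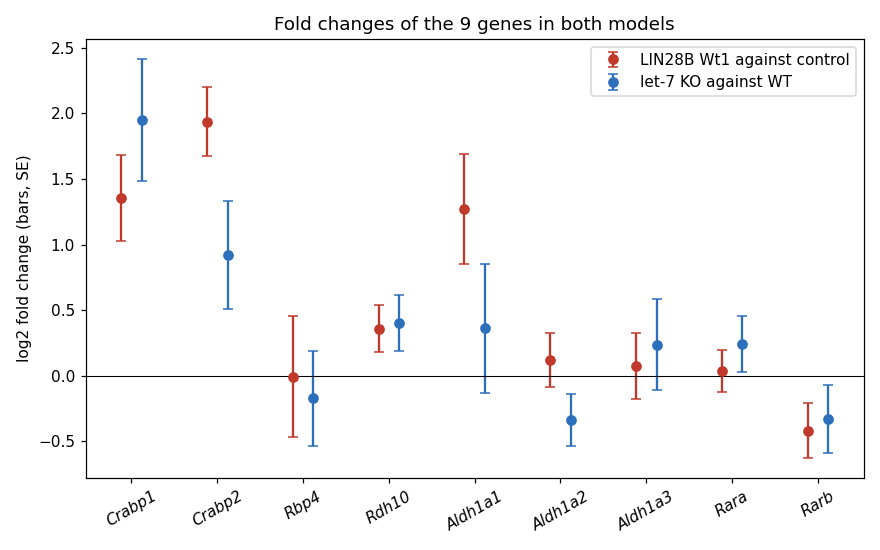
Log2 fold change (points) and SE (bars) of the 9 genes in LIN28B Wt1 against control and let-7 KO against wild type, from 3 kidneys a group. Crabp1, at 1.36 and 1.95, and Crabp2, at 1.94 and 0.92, are the genes with the highest values in both models among these 9, and Rarb is below 0 in both.

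Rarb is shown with its promoter because it is known for a retinoic acid response element close to its start. RefSeq promoter windows (GRCm38.p6, 250 bases before to 50 bases after a gene start) were at hand for 6 of the 9 genes. They were searched on both strands for direct repeats of a 6-letter half-site with a spacer of 1, 2 or 5 bases. The half-site accepted was AGGTCA in its usual form, the variant AGTTCA with a change inside the core, the variant GGGTCA with a different first letter, and the variant GGTTCA that combines both changes. Rarb alone of the 6 held one, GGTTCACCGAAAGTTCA, with a spacer of 5 bases, 53 bases before the start that RefSeq's window is built on, at chr14:16575513-16575529. That start is an internal one, since some annotated Rarb transcripts begin further upstream, so the window lies within the gene span given above. Because the accepted letters include those of the known Rarb element, the match was fixed by the choice of letters and is a description only. A repeat with that spacer was in 0.0974% of 32851 promoter windows, and those with spacers of 1 and 2 bases were in 0.222% and 0.268%. The window, chr14:16575427-16575726 on the minus strand, is printed with the half-sites in capitals.
Rarb promoter: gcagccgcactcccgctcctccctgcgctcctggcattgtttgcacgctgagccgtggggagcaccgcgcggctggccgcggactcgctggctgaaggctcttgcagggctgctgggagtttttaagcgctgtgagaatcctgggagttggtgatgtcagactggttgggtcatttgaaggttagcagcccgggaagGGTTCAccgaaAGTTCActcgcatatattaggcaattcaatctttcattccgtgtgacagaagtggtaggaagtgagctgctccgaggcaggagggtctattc

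Per unit of length the order of the 9 genes differed between groups. CPM per kilobase of exon (CPM per kb), the scale on which genes can be compared, put Aldh1a2 first in every group, at means of 66.0 in controls, 71.4 in LIN28B Wt1, 47.5 in wild type littermates and 37.7 in let-7 KO. Crabp1 ranked 3 of 9 in controls at 17.4 and 7 of 9 in wild type littermates at 7.36. By group means it ranked 2 of 9 in both mutants, at 44.5 in LIN28B Wt1 kidneys and 28.7 in those of let-7 KO mice. The higher rank restates the difference by which Crabp1 was chosen. In LIN28B Wt1 kidneys the ranges of Crabp1 (35.5 to 60.4) and Aldh1a2 (56.6 to 97.5) overlapped, whereas Crabp1 lay above Crabp2 (21.5 to 32.4) with no overlap. The range of Crabp1 in let-7 KO kidneys (16.4 to 52.3) overlapped those of Aldh1a2 (30.2 to 46.0) and Aldh1a3 (8.59 to 22.4). Its upper end was the third kidney, which raised the mean. In let-7 KO kidneys 1 and 2 Crabp1 lay below Aldh1a3 on this scale. Crabp2 ranked 7 of 9 in controls at 6.63 and 3 of 9 in LIN28B Wt1 at 25.3, above Aldh1a3 at 22.4, with ranges that overlapped. Aldh1a1 was last in all 4 groups, between 0.66 and 2.78 CPM per kb.

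**Figure D3:**
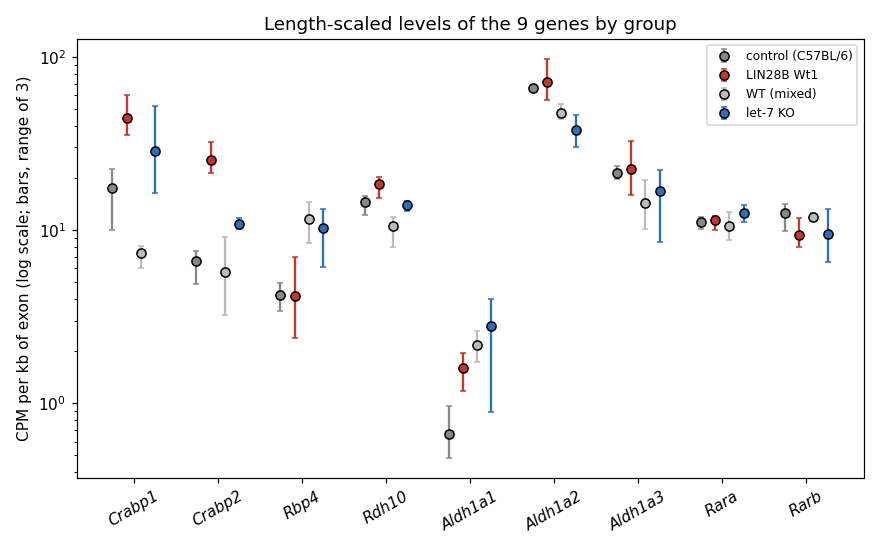
Length-scaled level of each gene (CPM per kb of exon, log axis) by group; points are means and bars the range of 3 kidneys. By group means Aldh1a2 is highest and Aldh1a1 lowest in every group. The Crabp1 mean is 7.36 in wild type littermates and 28.7 in let-7 KO, where the third kidney, at 52.3, raises it.

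Counting all 9 genes, 3 had no overlap between LIN28B Wt1 and control kidneys (Crabp1, Crabp2 and Aldh1a1, all higher), where 23.9% of all genes did not overlap. In let-7 KO the 3 were Crabp1, Crabp2 and Rdh10, all higher, beside 16.8% of all genes. Since Crabp1 was selected on that separation, 2 of 8 in each model is the count to read, and it was near the share of all genes. Of those 8, 2 had an unadjusted p below 0.05 in LIN28B Wt1 mice, beside 18% of all genes, and 1 did in let-7 KO mice. In the test of the difference between the models none of the 8 was called and none had an unadjusted p below 0.05; 0.00602% and 6.27% of 16598 genes did. DESeq2 also called none of the 8 there.

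The genes were not chosen by comparing the 2 wild type groups, but these kidneys were the controls in the comparisons that Crabp1 was chosen by. The values of Crabp1 here are therefore not independent of that choice, and it is included in the counts of the 9 genes. Mixed-strain littermates held less Crabp1 than C57BL/6 controls, with a log2 fold change of −1.24 (SE 0.43) and no overlap. Rbp4 and Aldh1a1 lay the other way, with log2 fold changes of 1.46 (SE 0.43) and 1.70 (SE 0.49), again with no overlap. Without C57BL/6 control kidney 2 the log2 fold change was −1.51 for Crabp1 and 2.07 for Aldh1a1. Without control kidney 1 that of Aldh1a1 was 1.52. Aldh1a2 (−0.47, SE 0.20), Aldh1a3 (−0.58, SE 0.34) and Rdh10 (−0.46, SE 0.19) were each lower in all 3 mixed-strain kidneys, so that 6 of the 9 genes did not overlap, beside 19.5% of all genes. None of the 9 passed the adjusted threshold in edgeR, which 0.627% of all genes did: the adjusted p was 0.325 for Crabp1, 0.19 for Rbp4 and 0.18 for Aldh1a1. An unadjusted p below 0.05 was reached by 5 of the 9 and by 9.58% of all genes, and DESeq2 called 2 of the 9, Rbp4 and Aldh1a1. Strain, experiment and litter cannot be told apart in this contrast. The proximal tubule list summed to 4493 to 4974 CPM in mixed-strain littermates and to 3073 to 3436 CPM in C57BL/6 controls, and the progenitor list to 161 to 234 and 216 to 261 CPM. Of the 8 progenitor markers 5 had an unadjusted p below 0.05, and Eya1 was called lower in mixed-strain kidneys (log2 fold change −2.89, SE 0.56; edgeR adjusted p = 0.0307), the direction of Crabp1. The part of cell composition in these values was not tested. The liver is the main source of Rbp4, and Alb, which defines it, stayed at or below 5.75 CPM in all 12 kidneys, while the liver list of 6 genes summed to 49.4 to 159.5 CPM in mixed-strain littermates and 121 to 134 CPM in C57BL/6 controls. Most of that sum was Afp (89.6 ± 53.7 and 98.6 ± 8.80 CPM), and Serpina1a was called lower in mixed-strain littermates, at 1.76 ± 0.49 against 16.5 ± 3.72 CPM (edgeR adjusted p = 0.00757).

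The rest of the pathway was read from 60 listed symbols, of which 58 were in the files. Those not found, Bco1 and Stra6l, are other names of Bcmo1 and 1300002K09Rik, which were found. No listed gene passed the adjusted threshold in either model, among 47 tested in LIN28B Wt1 mice and 48 in let-7 KO mice. An unadjusted p below 0.05 was reached by 14 of the 47 and 7 of the 48, beside 18% and 10.8% of all genes, and DESeq2 called 4 (Meis2, Ret, Tgm2 and Adh1) and 2 (Fabp5 among them). Over the listed genes the median log2 fold change was 0.07 for the LIN28B Wt1 comparison and −0.03 for the let-7 comparison, beside −0.02 over all genes in each.

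Genes that retinoic acid is known to induce had the highest count of low p-values in LIN28B Wt1 mice. Of 15 tested, 12 had a positive log2 fold change and 8 an unadjusted p below 0.05, which 18% of all genes reached, with a median of 0.52 beside −0.02 over all genes and none past the adjusted threshold. Meis2, a homeobox gene, was at 105 ± 6.22 CPM against 68.8 ± 12.2 CPM in controls (SD, n = 3 each), with a log2 fold change of 0.61 (SE 0.16; edgeR adjusted p = 0.0958). Ret, the receptor of the ureteric tip, had a log2 fold change of 1.47 (SE 0.45; adjusted p = 0.131) with overlapping groups. Tgm2, a transglutaminase also known as induced by retinoic acid, went the other way, at 42.6 ± 11.8 against 70.0 ± 7.12 CPM and a log2 fold change of −0.71 (SE 0.21; adjusted p = 0.122). In let-7 KO mice 9 of 15 were positive, with a median of 0.28, and Meis2 again stood above its littermates in every kidney (log2 fold change 0.65, SE 0.22; adjusted p = 0.377).

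Among carriers, Fabp5, a fatty acid-binding protein that also binds retinoic acid, was at 183 ± 79.7 CPM in let-7 KO and 99.9 ± 13.6 CPM in littermates (SD, n = 3 each). There was no overlap (log2 fold change 0.87, SE 0.28, edgeR adjusted p = 0.369), and without the third let-7 KO kidney the log2 fold change was 0.49. In LIN28B Wt1 Fabp5 was at 181 ± 32.1 against 138 ± 3.25 CPM, also without overlap (log2 fold change 0.40, SE 0.15, edgeR adjusted p = 0.21). The gene listed as 1300002K09Rik, a retinol transporter, stood at 1.02 ± 0.84 CPM in let-7 KO against 7.50 ± 2.08 CPM in littermates. Its log2 fold change was −2.88 (SE 0.85, edgeR adjusted p = 0.362).

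None of the enzymes and receptors listed passed the adjusted threshold either. In LIN28B Wt1, 3 of 16 enzymes and 1 of 11 receptors and coregulators had an unadjusted p below 0.05, beside 18% of all genes. For let-7 KO mice the counts were 0 of 17 and 3 of 11, beside 10.8% of all genes. Adh1, an alcohol dehydrogenase that also oxidises retinol, was at 112 ± 28.3 CPM in LIN28B Wt1 and 177 ± 27.3 CPM in control kidneys, with no overlap (log2 fold change −0.66, SE 0.21; edgeR adjusted p = 0.132). The coactivator Ncoa1 was below its controls in every kidney of both models, with log2 fold changes of −0.74 (SE 0.26; adjusted p = 0.172) and −0.68 (SE 0.21; adjusted p = 0.362). Cyp26a1 and Cyp26b1, which degrade retinoic acid, averaged at most 6.69 CPM in any group and their groups overlapped in both models. In the contrast of wild type groups Aldh1b1, a mitochondrial aldehyde dehydrogenase, had a log2 fold change of 0.93 (SE 0.21; adjusted p = 0.0725). Meis2 stood at −0.58 there on the log2 scale (adjusted p = 0.3), and Ttr, the blood partner of Rbp4, at −1.80 (adjusted p = 0.341). For the difference between models the corepressor Nrip1 had a value of 0.77 (SE 0.33; edgeR adjusted p = 0.757), with overlapping groups in each model.

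**Figure D4:**
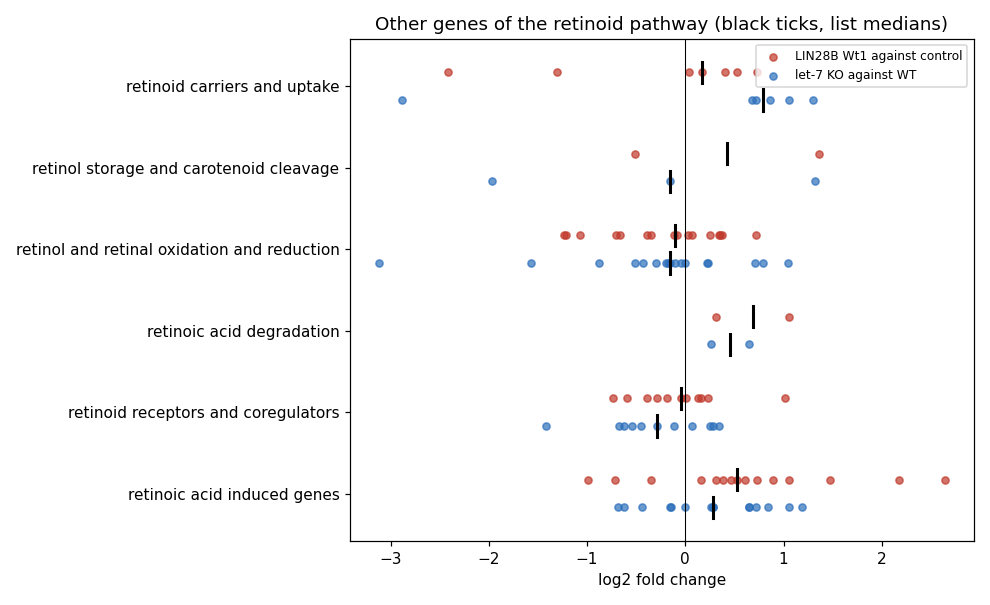
Log2 fold change of each tested gene of the 6 pathway lists in LIN28B Wt1 against control and let-7 KO against wild type; points are genes and black ticks list medians. The genes induced by retinoic acid have medians of 0.52 and 0.28, and no point passed the adjusted threshold.

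Markers of kidney cell types moved beside these genes. In LIN28B Wt1 kidneys 1.23% of all genes were called in either direction. Of 8 nephron progenitor markers 5 were called higher, Six2 by a log2 fold change of 3.35 (SE 0.24; edgeR adjusted p = 0.000797). The list summed to 446 to 618 CPM against 216 to 261 CPM in controls. Of 7 proximal tubule markers 3 were called lower, with sums of 1406 to 1725 against 3073 to 3436 CPM. Of 10 stromal markers 1 was called, Sfrp1, which was lower, and the list summed to 2328 to 2431 against 2695 to 2890 CPM. The list was split in direction, with a positive log2 fold change in 4 of the 10. Within it Pdgfra (log2 fold change −0.69; edgeR adjusted p = 0.0799) and Dcn (−0.41; adjusted p = 0.15) lay below every control. Pdgfrb did too, at −0.81 (edgeR adjusted p = 0.05), and was not called. Foxd1, which defines the cortical stroma, lay above every control, at 20.2 ± 4.94 against 12.5 ± 2.27 CPM (adjusted p = 0.199). So did Ntn1 (log2 fold change 0.60, edgeR adjusted p = 0.131) and Meis1 (0.46, adjusted p = 0.244). Of 8 ureteric bud tip and collecting duct markers 1 was called, Etv4, which was higher (log2 fold change 1.06, edgeR adjusted p = 0.0291). That list had a positive log2 fold change in 4 of the 8 and summed to 1531 to 1862 against 1812 to 2128 CPM. In let-7 KO kidneys edgeR called none of the 8 progenitor markers, where it called 0.0194% of all genes. An unadjusted p below 0.05 was reached by 2 of the 8, beside 10.8% of all genes. The progenitor list summed to 198 to 203 CPM against 161 to 234 CPM. Of those 8 markers 6 had a positive log2 fold change, with a median of 0.79 beside −0.02 over all genes: Gdnf (2.20, SE 0.63; adjusted p = 0.362) and Cited1 (1.13, SE 0.40; adjusted p = 0.379) were above the littermates in every kidney, while Itga8, the most abundant in the sum, was at 87.7 ± 14.2 against 109 ± 38.0 CPM. Of the 7 proximal tubule markers 0 were called and 0 had a positive log2 fold change in let-7 KO mice. Their sums were 3011 to 4615 CPM against 4493 to 4974 CPM in littermates. The stromal list summed to 3161 to 3653 CPM in let-7 KO against 2376 to 3182 CPM, with 0 of 10 called and 5 positive. Penk (log2 fold change 0.43, edgeR adjusted p = 0.424) and Col1a1 (0.62, adjusted p = 0.369) lay above every littermate, and Sfrp1 (−0.51, adjusted p = 0.377) below. The ureteric and collecting duct list summed to 2112 to 2773 CPM against 1319 to 2679 CPM, with 0 of 8 called and 5 positive. The part of cell composition in these values was not tested.

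Genes with the pattern most like that of Crabp1 were ranked among 15135 others by the Pearson r of log2 CPM over the 12 kidneys, which share groups, litters and library preparation. The 5 highest were Cbx3 (0.94), a heterochromatin protein, Dut (0.94), the enzyme that clears dUTP, Ptma (0.94), prothymosin alpha, Taf7 (0.94), a subunit of the general transcription factor TFIID, and Acvr2b (0.93), an activin receptor. Acvr2b was at 76.7, 71.4 and 56.8 CPM in LIN28B Wt1 kidneys and 23.3, 25.8 and 27.4 CPM in controls. It was at 20.5, 24.6 and 56.1 CPM in let-7 KO kidneys and in littermates at 9.48, 16.9 and 16.5 CPM. Here too the third let-7 KO kidney was high, and it was also the highest of its group for Cbx3, at 217 CPM beside 106 and 127 CPM. Cbx3 and Ptma have many processed copies in the genome, so their counts are uncertain. Among the members Crabp2 (0.76) and Rdh10 (0.66) were the most like Crabp1, and Rarb (−0.53) and Rbp4 (−0.497) the least. The progenitor marker Six2 had an r of 0.82 (rank 242.5) and Foxd1 one of 0.77 (rank 442). With the group means removed these values were 0.57 and 0.51. Both were picked from the marker lists, and the r of the other markers was not read out.

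When the 4 group means were removed, a different set led: Zfp865 (0.94), Ppfia2 (0.93), Smim19 (0.93), Ccdc106 (0.92) and Cabyr (0.91). These follow the kidney-to-kidney part of Crabp1, in which the third let-7 KO kidney weighs most. Cbx3 and Taf7 still had an r of 0.82 each on that scale, whereas Aldh1a3 had the lowest among the members, at −0.66.

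**Figure D5:**
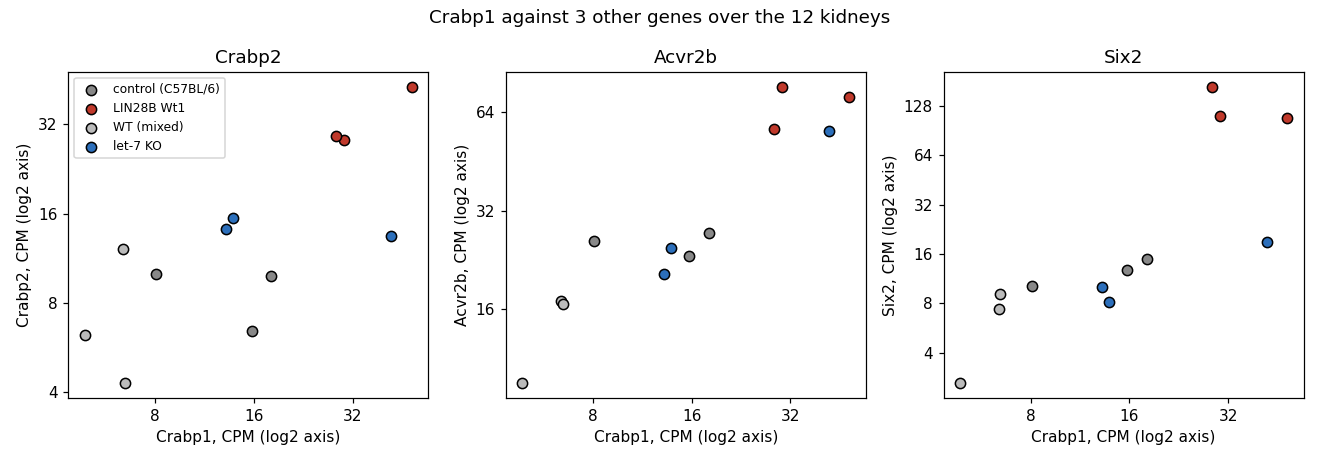
Crabp1 (horizontal, CPM, log2 axis) against Crabp2, Acvr2b and Six2 (vertical, CPM, log2 axes), 1 point a kidney, coloured by group. Crabp1 and Acvr2b are both high in the third let-7 KO kidney (41.9 and 56.1 CPM), where Crabp2, at 13.4 CPM, and Six2 are not near the LIN28B Wt1 kidneys.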

How the data were processed

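Whole-kidney RNA was converted to libraries by a low-input SMARTer kit and read on an Illumina HiSeq machine. The authors deposited raw read counts per gene symbol, 1 table per kidney. Their processing notes name cutadapt, TopHat2 2.0.9, Bowtie2, SAMtools 0.1.19 and HTSeq, and the build mm10 (GRCm38); the annotation, strand setting and handling of shared reads are not given in the sources used here. Counting intervals were not used, since comparisons rest on the spread between kidneys, and 3 counts corresponded to 0.049 to 0.0825 CPM.

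Groups came from the labels. Each model was fitted alone (3 against 3) in edgeR 4.0.16 (R 4.3.3) with filterByExpr (minimum count 10, total 15), TMM factors and the quasi-likelihood test. A gene was called at a Benjamini-Hochberg adjusted p below 0.05 over all genes tested. The difference between models and the contrast of wild type groups came from 1 fit of all 12 kidneys. CPM used TMM factors over the 12 kidneys; the kilobases for levels per length were the union of a gene's exons in GENCODE M21, in which 22708 of 24062 symbols matched 1 gene. The procedure was tested on simulated counts. Alternatives were DESeq2 1.42.0, upper-quartile factors, no low-count filter, the study's threshold (unadjusted p below 0.01), litter as a block, 1 joint fit or a fit of the 6 control kidneys, and each kidney left out.

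The labels number shared litters. Deviations from group means of mutant and control kidneys had a mean r of −0.07 within and 0.087 between litters in the LIN28B experiment, and −0.017 and 0.022 in the let-7 experiment. Because deviations from a group mean cancel within the group, the within and between values are largely tied to opposite signs and are not separate observations. No 2 libraries of a group agreed within sampling noise.

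The 9 genes, the pathway lists and the marker lists were chosen with earlier results of these data known. Named were the 9 genes; pathway genes called in a comparison (at most 10) or, with none called, those with an unadjusted p below 0.05 (at most 5 by p); and the 5 genes most like Crabp1 on each of 2 scales. The marker genes, Cyp26a1 and Cyp26b1 were named after their values were seen. Values of 2 pathway genes that met this rule are not reported here.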

Additional observations from a re-analysis of the deposited data

Results flagged for a closer look

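For 3 other genes of the pathway every mutant kidney lay on opposite sides of its control mean in the 2 models, and none of the differences was called. For Adh1 the log2 fold change in LIN28B Wt1 minus that in let-7 KO was −0.91 (SE 0.26; edgeR interaction adjusted p = 0.536): Adh1 was at 79.4 to 133 CPM in LIN28B Wt1 kidneys and 151 to 205 CPM in controls, and at 186 to 191 CPM in let-7 KO kidneys and 142 to 169 CPM in littermates. For Aldh1b1 the difference was 0.75 (SE 0.30; adjusted p = 0.73), with 25.2 to 29.2 CPM against 18.6 to 23.4 CPM and 29.3 to 31.6 CPM against 31.8 to 52.7 CPM. For Ncor1, a corepressor of the receptors, it was 0.40 (SE 0.18; adjusted p = 0.794), with 198 to 205 CPM against 171 to 192 CPM and 131 to 163 CPM against 168 to 193 CPM.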

How the results depend on the processing

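The number of genes called in LIN28B Wt1 (194) was 1264 with DESeq2, 95 with litter as a block, 1158 at an unadjusted p below 0.01 and 21 to 2074 with 1 kidney left out, highest without the third LIN28B Wt1 kidney. In let-7 KO (3) it was 235, 0 and 423 under the first 3, 5 in 1 joint fit and 0 to 5 with 1 kidney left out. For the difference between models (1) it was 101, 0 and 257, 3 with no low-count filter and 1 to 6 with 1 kidney left out. Between wild type groups (104) it was 397 with DESeq2, 551 at an unadjusted p below 0.01, 188 in a fit of the 6 control kidneys and 31 to 137 with 1 kidney left out; there no block could be fitted, because no litter holds both groups. Of the 8 members, 0 to 1 was called in LIN28B Wt1 with 1 kidney left out. Of the 9, 2 were called between wild type groups with DESeq2 and 2 at an unadjusted p below 0.01. Listed pathway genes called in LIN28B Wt1 (0) were 4 with DESeq2, 4 at an unadjusted p below 0.01 and 0 to 4 with 1 kidney left out, 4 without the third LIN28B Wt1 kidney; in let-7 KO (0) they were 2 and 3 under the first 2. The litter block changed no call among the 9 genes. The adjusted p of Crabp2 in LIN28B Wt1 ran from 4.81e-09 (DESeq2) to 0.0822.

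Signs of small log2 fold changes turned, none of them called, and the cause was not tested. Rbp4 in LIN28B Wt1 was 0.012 with DESeq2 and 0.005 with upper-quartile factors. With 1 kidney left out, the LIN28B Wt1 values ran as follows: Rbp4 from −0.591 to 0.269, Rara from −0.026 to 0.138, Aldh1a2 from −0.177 to 0.273 and Aldh1a3 from −0.307 to 0.282. In let-7 KO, Rbp4 ran from −0.402 to 0.093 and Aldh1a3 from −0.027 to 0.556. For the difference between models, Crabp1 ran from −0.9 to 0.166, Rbp4 from −0.452 to 0.429, Aldh1a3 from −0.55 to 0.064, Rdh10 from −0.171 to 0.102 and Rarb from −0.311 to 0.208. Between wild type groups, Crabp2 ran from −0.73 to 0.07, Rara from −0.237 to 0.038 and Rarb from −0.221 to 0.018. Of the 5 genes most like Crabp1 by Pearson r, 1 (Dut) was among the first 5 by Spearman rho. Depth was not limiting for the 9 genes, all counted far above 3 counts in each kidney.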
